A study of Mus musculus with 6 samples.

Results

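The interleukin 1 family comprises related cytokines, their receptors and the proteins that block them. The 10 members described here were chosen by gene name from the deposited table of 22027 genes: the ligand genes Il1a, Il1b, Il18 and Il33, the inhibitor genes Il1rn and Il18bp, and the receptor genes Il1r1, Il1r2, Il1rap and Il1rl1. All 10 were found. Expression was measured by RNA-seq in cells labelled as lymphatic endothelium of the mouse liver, taken from Il7-GFP reporter mice, in which green fluorescent protein reports the interleukin 7 gene. There were 3 libraries of an ischemia and reperfusion group (I/R), sampled on day 3 after an injury in which blood flow is stopped and restored, and 3 of a sham-operated group (Sham). Both groups carried the reporter, and the column headings of the table include "GFP plus". From 20000 to 50000 cells per sample went into TRIzol, and ribosomal RNA was depleted. Strain, age, sex, the sort gate, the time after the sham operation and the number of animals per sample were not stated in the labels. Replicates may therefore be technical, and the p-values cover no more than the variation among these 6 libraries.

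Interleukin 1 alpha and interleukin 1 beta act through the receptor encoded by Il1r1, which pairs with the accessory protein encoded by Il1rap, and drive NF-kappaB target genes. Interleukin 1 beta and interleukin 18 are made as precursors that inflammasome caspases cut, while interleukin 1 alpha and interleukin 33 can act as alarm signals when damaged cells release them. Liver macrophages are a known source of interleukin 1, and stromal, endothelial and epithelial cells are known sources of interleukin 33. A transcript level shows neither the cut nor the release of a cytokine.

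Recovered counts summed to between 6297308 and 17086746 per I/R library and between 6638130 and 15650152 per Sham library. Lymphatic genes such as Mmrn1, Ccl21a and Flt4 were present in all 6 libraries. The 9 lymphatic markers had summed values of 27695 to 44576 in I/R libraries and 8463 to 30439 in Sham libraries, and all 9 had positive log2 fold changes. None of the 9 was called, and 4 had an unadjusted p under 0.05, where 2.96% of all tested genes did so higher. Macrophage genes were also abundant: the 11 Kupffer cell and macrophage markers summed to 162581, 244280 and 270844 in I/R libraries 1, 2 and 3, and to between 235249 and 269134 in Sham libraries. Their log2 fold changes were negative for 10 and positive for 1, with a median of -0.19. None of the 11 was called or had an unadjusted limma p under 0.05. Hepatocyte genes were present as well. The 7 hepatocyte markers, led by Alb, Apoa1 and Ttr, summed to 41103 to 56062 in I/R and 38769 to 67872 in Sham libraries. Which cells of a library carried a member's transcript was therefore not resolved, and in bulk samples fewer cells of a type and less RNA per cell cannot be told apart. Sham library 1 stood apart from the other Sham libraries. It held the highest value of all 6 libraries for 5 of the 10 members, namely Il1a, Il1b, Il33, Il1rn and Il1r1, and also for 7 of 10 hepatic stellate cell and fibroblast markers.

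Il1a and Il1b were the most abundant members. They lie side by side on the minus strand of chromosome 2 in GRCm38, Il1a at chr2:129299610-129309972 and Il1b at chr2:129364570-129371139, 54.6 kb apart. The 250 bases before the RefSeq start of each gene are shown because both levels lay close together in every library. Both are written 5′ to 3′ on the minus strand, with capitals for motif matches on either strand. The motifs searched included the TATA box, written TATAAA. The core bound by the macrophage factor PU.1 was searched as GAGGAA. The AP-1 site was searched as TGANTCA, and none of the matches overlapped. Il1a covers chr2:129309973-129310222 and Il1b chr2:129371140-129371389, from RefSeq on GRCm38.p6.
Il1a: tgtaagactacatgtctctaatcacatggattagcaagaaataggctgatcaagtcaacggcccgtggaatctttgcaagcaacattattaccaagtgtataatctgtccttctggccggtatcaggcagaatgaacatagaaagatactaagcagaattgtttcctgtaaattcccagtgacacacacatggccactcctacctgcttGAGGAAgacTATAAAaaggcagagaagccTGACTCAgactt
Il1b: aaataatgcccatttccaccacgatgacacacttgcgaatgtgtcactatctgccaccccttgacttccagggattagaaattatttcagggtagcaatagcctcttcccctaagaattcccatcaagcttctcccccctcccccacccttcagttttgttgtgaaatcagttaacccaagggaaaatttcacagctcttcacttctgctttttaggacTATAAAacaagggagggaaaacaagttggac
Each sequence held a TATA box at a similar place, from -32 to -27 before the start of Il1a and from -31 to -26 before that of Il1b. Il1a also held a PU.1 core from -41 and an AP-1 match from -12. Windows of 300 bases, 250 before and 50 after a start, were searched for all genes, and 13.6% of 32851 held the TATA box, 28.3% the PU.1 core and 7.81% the AP-1 site. A kappaB motif, held by 1.47% of all windows, was in no window of the 10 members, which says only that its letters are not there. A match likewise describes letters and is no evidence of a factor bound.

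Il33 lies on the plus strand at chr19:29925114-29960718, and RefSeq gives it a pair of starts. The bases before both are shown because Il33 varied most between libraries among the 9 tested members and the gene table does not separate its transcripts. The first covers chr19:29924863-29925112 and the second chr19:29945540-29945789, both on the plus strand of GRCm38.p6, with TATAAA in capitals.
Il33, first start: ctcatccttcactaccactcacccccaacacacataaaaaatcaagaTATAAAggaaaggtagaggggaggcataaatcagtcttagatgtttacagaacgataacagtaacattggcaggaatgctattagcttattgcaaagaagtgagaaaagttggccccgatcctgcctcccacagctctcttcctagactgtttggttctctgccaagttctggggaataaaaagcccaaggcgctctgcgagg
Il33, second start: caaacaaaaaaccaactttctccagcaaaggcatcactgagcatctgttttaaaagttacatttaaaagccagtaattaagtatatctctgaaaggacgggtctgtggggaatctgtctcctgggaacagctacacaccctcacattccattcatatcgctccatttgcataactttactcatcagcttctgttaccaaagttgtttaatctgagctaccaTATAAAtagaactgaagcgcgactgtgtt
The first start had its match from -203 to -198 and the second from -29 to -24.

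The level of Il1a was 14285, 13138 and 15170.5 in I/R libraries 1, 2 and 3, against 16395, 12082 and 15876 in Sham libraries 1, 2 and 3 (normalised counts). The I/R libraries lay inside the span of the Sham libraries. Means were 14198 ± 1019 in I/R and 14784.5 ± 2355 in Sham (SD, n = 3 each). The log2 fold change was -0.048, with an SE of 0.19 and a 95% interval of -0.47 to 0.38 (limma adjusted p = 0.995). Without Sham library 1 it was 0.033. Of its exon bases, 222 (11.2%) are shared with Gm14023 on the opposite strand, and whether counting used strand is not given, so reads there cannot be told apart.

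Il1b had 13520.2, 13074 and 13584 in I/R libraries, against 17896, 12886 and 15387 in Sham libraries. The 3 I/R libraries were nearly level, the groups overlapped, and Sham library 1 was the highest. The log2 fold change was -0.19 (SE 0.19, 95% interval -0.60 to 0.23, adjusted p = 0.985), with means of 13393 ± 278 in I/R and 15389.5 ± 2505 in Sham. Without Sham library 1 it was -0.073. Its exons share 25 bases with the antisense gene Il1bos.

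Il18 (chr9:50554827-50581840, plus strand) encodes a cytokine known to prompt interferon gamma release from lymphocytes. It stood at 374, 616 and 459 in I/R libraries, against 487, 484 and 699 in Sham libraries. The lowest value was that of I/R library 1, and the groups overlapped. The log2 fold change was -0.21 (SE 0.25, adjusted p = 0.985). It was -0.044 without I/R library 1, -0.037 without Sham library 3 and -0.40 without I/R library 2. Summed Kupffer cell and macrophage markers were also lowest in I/R library 1, and their part in this value was not tested.

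Il33 had 192, 225 and 204 in I/R libraries, against 1007, 97.8 and 129 in Sham libraries. The I/R libraries agreed closely, while 1 Sham library lay far above them and the other Sham libraries lay below. The highest library was 10.3-fold above the lowest, a log2 range of 3.35, and 1.69% of 10837 genes with a mean of at least 50 had a wider one. The log2 fold change was -0.18 (SE 0.69, 95% interval -1.71 to 1.35, limma adjusted p = 0.995). The sign turned without Sham library 1, to 0.87 (SE 0.29, unadjusted p = 0.0145, adjusted p = 0.471), and count models on all libraries gave -0.97 with edgeR and -0.99 with DESeq2. The direction of the difference in Il33 therefore rests on Sham library 1.

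Genes most like Il33 over the 6 libraries were sought among 10836 genes by the root mean square difference of their centred log2 values. They were Pdgfra (0.241), the receptor gene of fibroblasts and stellate cells, Ifnb1 (0.304), which encodes interferon beta, and Ifit1 (0.323), an interferon-induced gene. Pdgfra had 48.7, 80.4 and 60.7 in I/R libraries, against 236, 29.9 and 47.8 in Sham libraries. Ifnb1 had 278, 261 and 249 in I/R libraries, against 846, 111 and 213 in Sham libraries. All 3 genes were highest in Sham library 1 and lowest in Sham library 2, as was Il33. The 10 stellate cell and fibroblast markers summed to 2596, 3292 and 3482 in I/R libraries, against 7178, 1264 and 1629 in Sham libraries, with Sham library 1 2.06 times the next library, whereas Il33 was 4.48 times the next there. Col3a1, a collagen gene, had 905, 1128 and 1256 in I/R libraries, against 3207, 253 and 321 in Sham libraries. With all libraries it was not called, at 0.76, and without Sham library 1 it was, at 1.92 (limma adjusted p = 0.0137), as was Col1a1, at 1.56 (adjusted p = 0.0458). Each was called in 1 of 18 alternatives, the one without the library where it was highest. On all libraries, edgeR and DESeq2 gave -0.19 and -0.20 for Col3a1, and 8.6e-05 and -0.015 for Col1a1. The part of these cells in the Il33 values was not tested. Mesothelial markers summed to 12.2 to 27.4 in I/R and 5.99 to 19.1 in Sham libraries. Pan-endothelial markers summed to 14947 to 22315 in I/R and 13655 to 20238 in Sham libraries, with 18468 in Sham library 1. Cdh5, the most abundant of the 8, was at -0.21, with 8965 to 15254 in I/R and 10659 to 15657 in Sham libraries. Yet 6 of the 8 had positive log2 fold changes and 2 negative ones, with a median of 0.64, and none was called. Without overlap, 3 were higher in I/R, beside 5.11% of all tested genes. Higher with an unadjusted limma p under 0.05 were 5, beside 2.96% of all tested genes. Cholangiocyte markers summed to 1669 to 5984 in I/R and 3878 to 4558 in Sham libraries, with 4558 in Sham library 1. The part of these other cell types was not tested either.

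**Figure D1:**
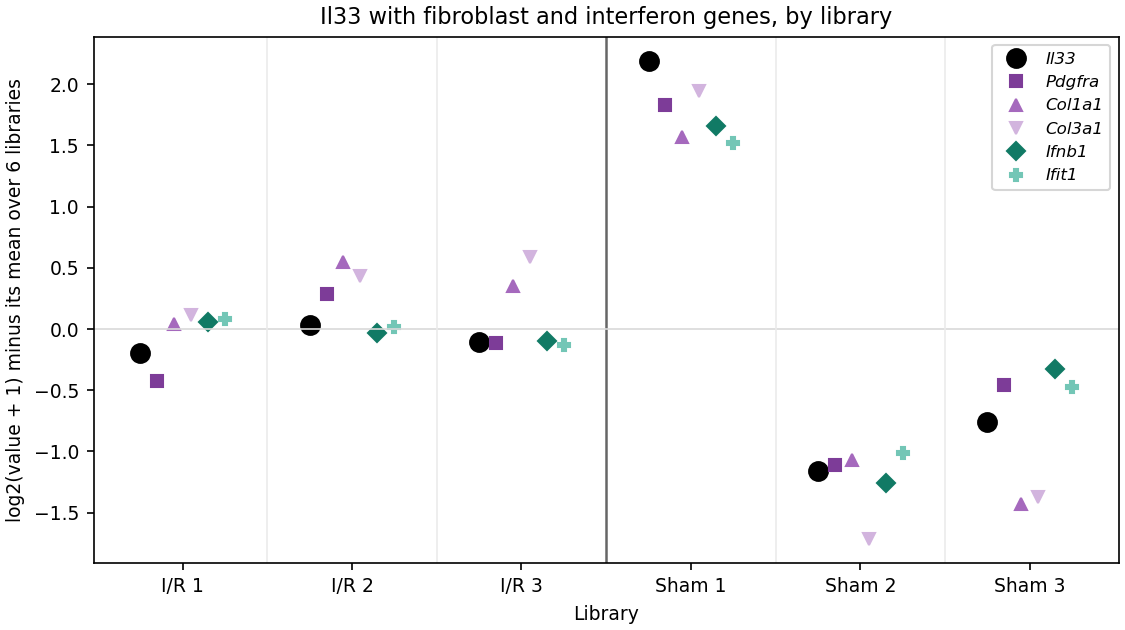
Il33, 3 fibroblast genes and 2 interferon genes in each library, as log2(value + 1) minus the mean of the gene over 6 libraries, I/R left and Sham right. All 6 genes were highest in Sham library 1, and Il33 stood at 192 to 225 in the I/R libraries and at 1007, 97.8 and 129 in Sham libraries 1, 2 and 3.

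Among the inhibitors, Il1rn (chr2:24336853-24351494, plus strand) encodes the antagonist that occupies the interleukin 1 receptor without signalling. It had 4749, 4536 and 3898 in I/R libraries, against 7823, 3863 and 4763 in Sham libraries. Sham library 1 was the highest and the rest overlapped. The log2 fold change was -0.26 (SE 0.25, 95% interval -0.80 to 0.29, adjusted p = 0.985), and 0.030 without Sham library 1. The genes most like it were Sipa1l2, Herc6 and Dck, at 0.0666, 0.0719 and 0.0772 by the same measure; Herc6, an interferon-induced gene, had 1059, 1037 and 892 in I/R libraries, against 2037, 919 and 1107 in Sham libraries.

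Il18bp (chr7:102014885-102018690, minus strand) encodes the secreted protein that binds and neutralises interleukin 18. It had 1652, 2550.4 and 2609.6 in I/R libraries, against 2288, 2861 and 3014 in Sham libraries. The lowest value was I/R library 1, and the groups overlapped. The log2 fold change was -0.28 (SE 0.21, 95% interval -0.75 to 0.19, limma unadjusted p = 0.217, adjusted p = 0.985), the smallest p of the 9 members tested, and it was -0.067 without I/R library 1. A total of 80 of its exon bases (2.64%) overlap Numa1.

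Inhibitors were also set against their ligands per kilobase of exon. Exon length was the union over all annotated transcripts, 5535 bases for Il1rn with 6 transcripts and 1974 for Il1a with 1. The size of a ratio between genes depends on these lengths, while its comparison between libraries does not. The ratio of Il1rn to Il1b was 0.121, 0.120 and 0.0989 in I/R libraries, against 0.151, 0.103 and 0.107 in Sham libraries. The ratio of Il1rn to Il1a was 0.119, 0.123 and 0.0916 in I/R libraries, against 0.170, 0.114 and 0.107 in Sham libraries. That of Il18bp to Il18 was 1.504, 1.41 and 1.94 in I/R libraries, against 1.60, 2.02 and 1.47 in Sham libraries. All 3 ratios overlapped between the groups. Il18bp was above Il18 in every library, while Il1rn lay well below both interleukin 1 genes in every library. Both orders also held in the values before division by length.

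**Figure D2:**
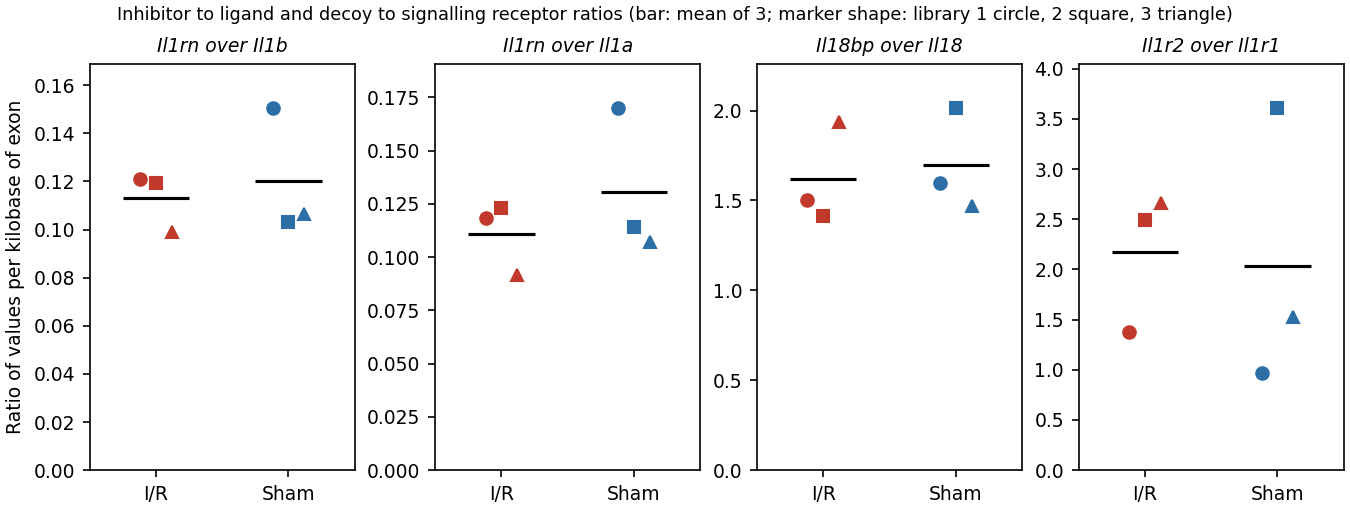
Ratios of inhibitor to ligand, and of Il1r2 to Il1r1, per kilobase of exon in each library, I/R left and Sham right. The groups overlapped in each ratio, and Il18bp over Il18 lay between 1.41 and 2.02.

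Of the receptors, Il1r2 (chr1:40074079-40125231, plus strand) encodes a decoy that binds interleukin 1 without signalling. It had 98.9, 111 and 104 in I/R libraries, against 84.7, 87.1 and 78.9 in Sham libraries. Every I/R library was above every Sham library, which was the case for no other member. Means were 105 ± 5.96 in I/R and 83.6 ± 4.25 in Sham (SD, n = 3 each). These values came from 65, 182 and 134 counts in I/R libraries 1, 2 and 3, and 52, 131 and 66 in Sham libraries 1, 2 and 3. At such low counts, counting error limits how firmly the gap between the groups can be read. The difference was 0.32 on the log2 scale (SE 0.32, 95% interval -0.39 to 1.03, limma adjusted p = 0.985), an SE that also draws on the spread of other genes of like level. That is 1 of 9 tested members without overlap, higher in I/R, where 5.11% of all tested genes lay higher and 4.48% lower without overlap (9.59% in either direction). The 8 recruited monocyte markers summed to 4595 to 5025 in I/R and 2327 to 2770 in Sham libraries, and their part in the Il1r2 values was not tested. Of the 8, 7 had positive log2 fold changes and 1 a negative one. Their median was 1.81. Without overlap, 4 of the 8 were higher in I/R, beside 5.11% of all tested genes. Higher with an unadjusted limma p under 0.05 were 5 of the 8, beside 2.96% of all tested genes. Itgam was at 0.51 and Plac8 at -0.12, and both overlapped between the groups. F13a1, with 1321 to 2051 in I/R and 265 to 564 in Sham libraries, was the only one of the 8 called, at 2.18 (limma adjusted p = 0.0416). That call was lost in 10 of 18 alternatives, among them the fit without the trend, edgeR and 5 of the 6 fits with a single library left out, with adjusted p from 1.9e-09 to 0.970. Neutrophils are known to make Il1r2. The 11 neutrophil markers summed to 1428.6 to 1579.9 in I/R libraries and 1252 to 1429 in Sham libraries, 4 of the 11 were tested and none was called. Ltf, which encodes lactoferrin, had 513, 242 and 142 in I/R libraries, against 156, 91.8 and 31.1 in Sham libraries. Csf3r, the granulocyte growth factor receptor gene, had 884 to 1235 in I/R and 1144 to 1197 in Sham libraries, S100a9 had 36.5 to 62.3 in I/R and 16.0 to 86.4 in Sham libraries, and Ly6g, Retnlg and Ngp were at 0 in all 6. The part of neutrophils was not tested.

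Il1r1 (chr1:40225080-40317257, plus strand), the signalling receptor, had 239, 149 and 131 in I/R libraries, against 292, 80.5 and 172 in Sham libraries. Libraries of both groups were spread widely and overlapped. Its log2 fold change was 0.065 (SE 0.45, 95% interval -0.92 to 1.05, adjusted p = 0.998). Leaving out Sham library 2 gave -0.42, and leaving out Sham library 1 gave 0.50. The most similar genes were Ugt2a3 (0.176), Primpol (0.180) and Cpb2 (0.197). The ratio of Il1r2 to Il1r1 was 1.38, 2.49 and 2.66 in I/R libraries, against 0.969, 3.61 and 1.53 in Sham libraries, which overlap.

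Il1rap (chr16:26581704-26730117, plus strand), the accessory chain shared by the interleukin 1 and interleukin 33 receptors, had 198, 125 and 156 in I/R libraries, against 166, 119 and 204 in Sham libraries. The groups overlapped, and the log2 fold change was -0.022 (SE 0.31, 95% interval -0.72 to 0.67, adjusted p = 0.998). Leaving out Sham library 1 gave 0.0083. Its exons share 552 bases (4.86%) with Gm20319.

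Il1rl1 (chr1:40429570-40465415, plus strand) encodes ST2, the receptor for interleukin 33. It had 27.4, 0 and 0 in I/R libraries, against 0, 18.6 and 7.17 in Sham libraries, from 18, 0 and 0 counts in I/R and 0, 28 and 6 in Sham. Zero counts allow values up to 1.83 and 2.34 in I/R libraries 2 and 3 and up to 4.89 in Sham library 1. With a mean of 8.86 it stayed below the filter of 10 and was not tested. Soluble and membrane forms of Il1rl1 and Il1rap are not separated in a gene table. Il1r2, Il1r1 and Il1rl1 lie within 391 kb of chromosome 1.

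**Figure D3:**
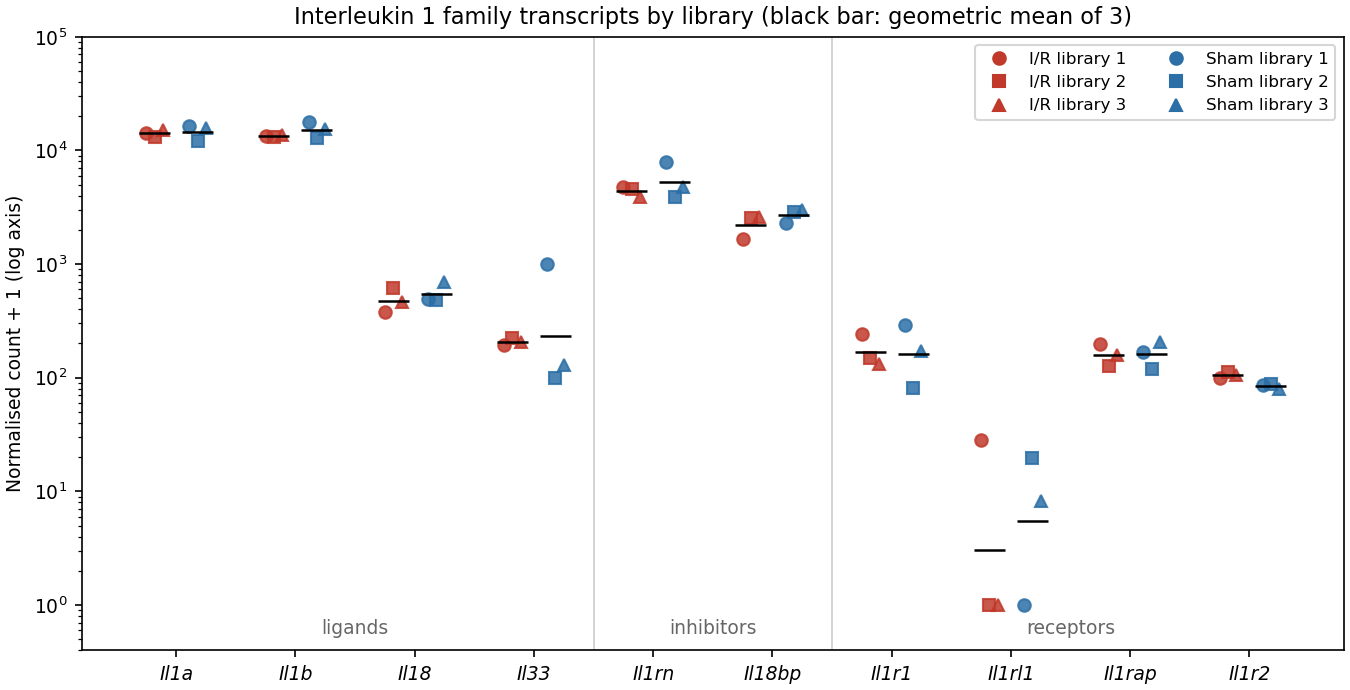
Normalised count + 1 of the 10 members in each library on a log axis, with bars at the geometric mean of 3, I/R left and Sham right. Il1a and Il1b stood between 12082 and 17896, and Il1rl1 was at 0 in 3 of 6.

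Of the 10 members, 9 passed the filter and were tested within 13434 genes. None was called in either direction by limma, where 0.0298% of all genes were called higher and 0% lower, and none had an unadjusted p under 0.05, where 2.96% of all genes did so higher and 1.48% lower (4.44% together). edgeR and DESeq2 also called 0 members. Log2 fold changes were positive for 2 and negative for 7, with a median of -0.18, beside a median of 0.017 and 52.1% positive over all genes. Without Sham library 1, 6 were positive and 3 negative, with a median of 0.030, and leaving out other single libraries gave 1 to 4 positive. The direction of the members as a group therefore rests on which libraries are kept. Intervals of these folds still admitted changes in either direction for each member.

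**Figure D4:**
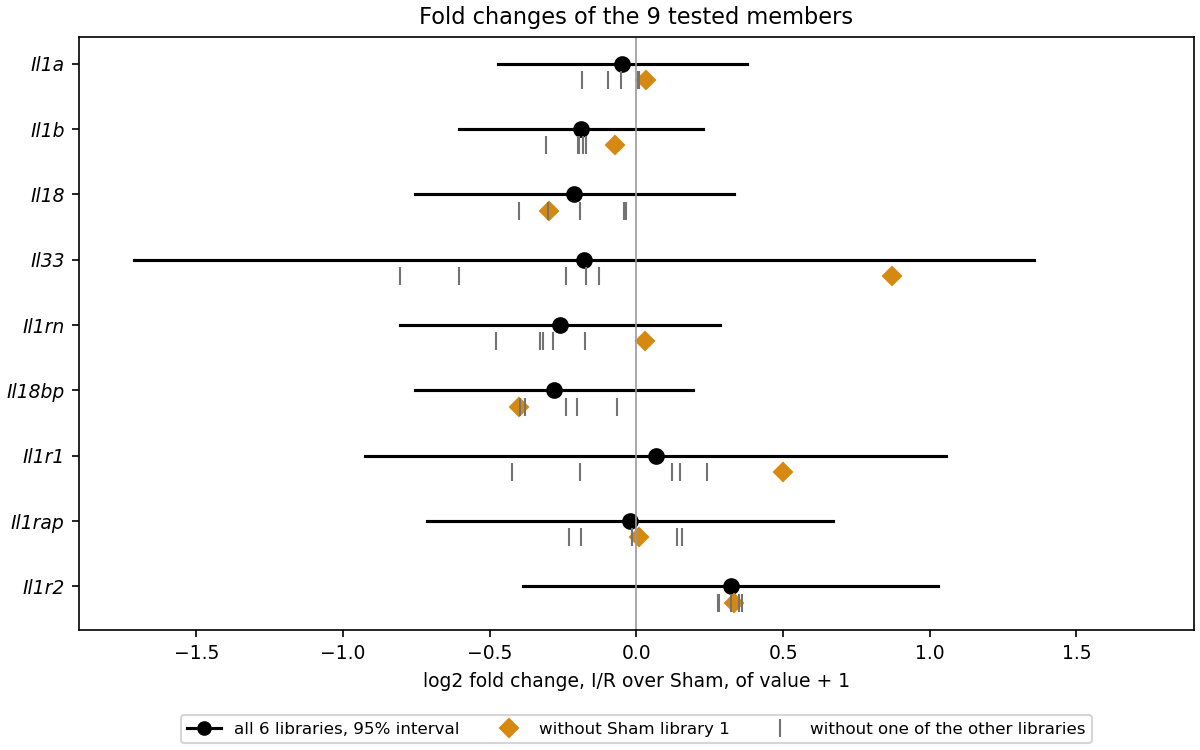
Log2 fold changes of I/R over Sham with 95% intervals for the 9 tested members. Every interval spans 0, and that of Il33, -1.71 to 1.35, is the widest.

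Per kilobase of exon, mean levels ran in the order Il1b (7546), Il1a (7341), Il1rn (892), Il18bp (825), Il18 (504), Il33 (107), Il1r2 (49.3), Il1r1 (27.8), Il1rap (14.2) and Il1rl1 (1.29). Il1b exceeded Il1a in 4 of 6 libraries, and Il1rn exceeded Il18bp in 2 of 6, so these neighbours did not differ beyond their spread. Il33 exceeded Il1r2, and Il1r2 exceeded Il1r1, in 5 of 6, and every other member exceeded the next in 6 of 6. The ratio of Il1a to Il1b was 1.02, 0.971 and 1.08 in I/R libraries, against 0.885, 0.906 and 0.997 in Sham libraries, an overlap. Il1a and Il1b made up 84.8% to 88.1% of the summed level of all 10 members in I/R libraries and 85.1% to 85.8% in Sham libraries. By mean level, the 4 receptor genes all lay below the 4 ligand genes. Levels between genes depend on the union exon length used, which for Il1rap was 11360 bases over 7 transcripts.

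Genes that act around the members were described from lists. Of 6 other family receptors, 2 were tested, Il1rl2 at -0.74 (-1.20 without Sham library 1 and -0.19 without Sham library 3) and Sigirr at -0.022 (-0.20 to 0.10 with single libraries left out); the interleukin 18 receptor genes Il18r1 and Il18rap had 22 and 52 counts over all 6 libraries. The other family ligands were at or near 0 and none was tested. Of 22 genes for the inflammasome and cytokine maturation, 19 were tested, with 8 positive and 11 negative log2 fold changes and a median of -0.058 (-0.098 to 0.11 with single libraries left out). Nlrp3, the inflammasome sensor, was at -0.24 (-0.42 to -0.13 with single libraries left out). Pycard, its adaptor, was at 0.67, and at 0.30 without Sham library 1 and 1.03 without Sham library 3. None was called. Of 25 adaptor and kinase genes, 24 were tested, 9 positive and 15 negative, median -0.093 (-0.17 to -0.029 with single libraries left out). Peli1, a ubiquitin ligase of the pathway, was at -0.46, and at -0.21 without Sham library 1, where it was highest, and -0.70 without Sham library 2. Rela, an NF-kappaB subunit, was at -0.30, and at -0.18 without I/R library 1, and none was called.

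Of 25 interleukin 1 response genes, 23 were tested, 11 positive and 12 negative, with a median of -0.080 and none called. That median was 0.066 without Sham library 1, 0.021 without I/R library 2 and 0.13 without both libraries of the lowest depth. Nfkbiz, an NF-kappaB co-factor, had 7956, 9231 and 9619 in I/R libraries, against 9495, 16556 and 13737.5 in Sham libraries (log2 fold change -0.54, unadjusted p = 0.0361, adjusted p = 0.985), which was -0.36 without Sham library 2. Icam1, Vcam1 and Tnfaip3, which encode leukocyte adhesion molecules and a brake on NF-kappaB, did not overlap between the groups and were lower in I/R, with log2 fold changes of -0.28, -0.28 and -0.34. Without I/R library 1 these were -0.18, -0.17 and -0.26. For Icam1 the gap was narrow, from a highest I/R value of 10743 to a lowest Sham value of 10897. For 23 tested genes that is 3, where 4.48% of all genes lay lower without overlap. Cxcl3, a neutrophil chemokine gene, had 1525, 1411 and 1322 in I/R libraries, against 2368, 351 and 447 in Sham libraries, again with Sham library 1 the highest. It was not called with all libraries, at 0.98 with limma, 0.44 with edgeR and 0.43 with DESeq2. Cxcl3 was called without that library, at 1.84 (SE 0.19, limma adjusted p = 0.0113), when 20 genes were called higher, and in no other of 18 alternatives. Of 11 response genes of interleukin 18 and interleukin 33, 4 were tested, 2 positive and 2 negative. Their median was 0.14 and none was called. Arg1, which encodes arginase, was at 0.60 (limma unadjusted p = 0.0346, adjusted p = 0.985). With single libraries left out Arg1 was at 0.43 to 0.83. Areg was at 0.35, Retnla at -0.40 and Ccl24 at -0.076.

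**Figure D5:**
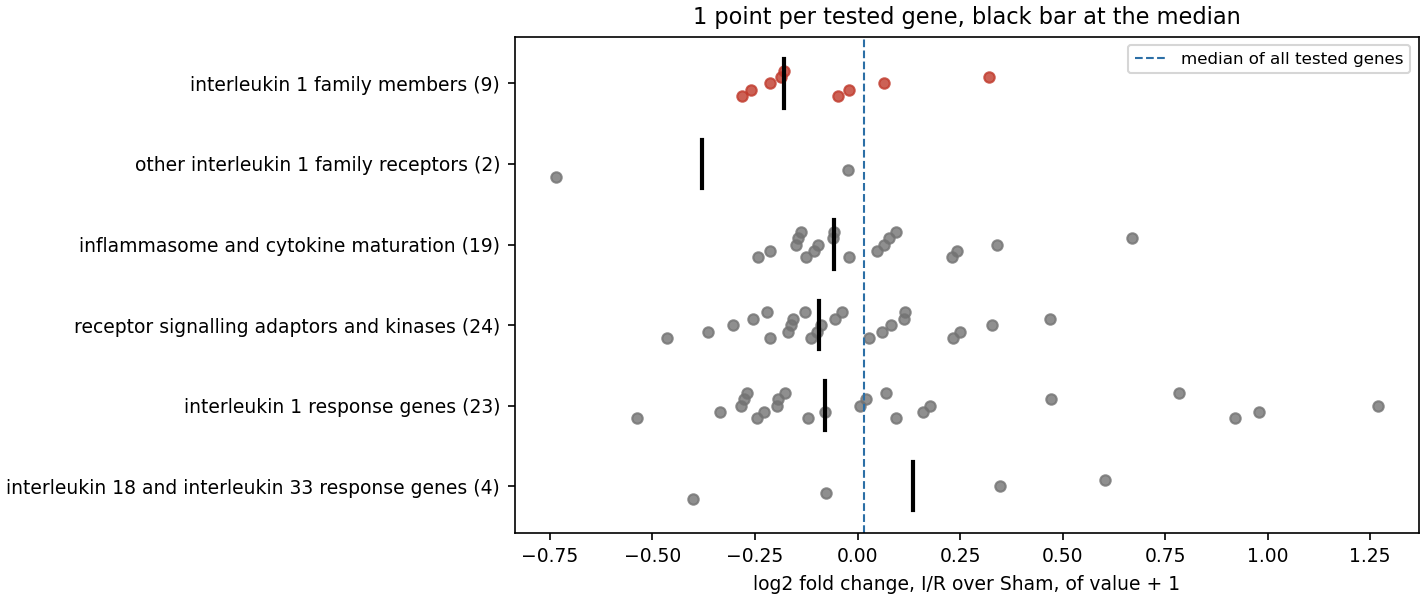
Log2 fold changes of I/R over Sham for each tested gene of the pathway lists, with list medians. Medians lay from -0.38 to 0.14, beside 0.017 over all genes.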

How the data were processed

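The authors deposited 1 table of normalised counts, a signal in which every library has its own scale factor. The tools listed in the submitters' processing notes are DESeq2 1.22.1, StringTie 1.3.3b, HISAT2 2.1.0 and Trim Galore 0.5.0, and the build is mm10. For the counting method and its use of strand the sources used here give nothing. Whole reads were recovered from the size of the smallest step in a library, and 100% of values came out whole within 0.01; they may be derived from coverage. No pair of libraries agreed within sampling noise (chi-square per degree of freedom 26.3 to 59.9), so none was merged with another and each counted once. These values cannot tell whether the libraries came from separate animals.

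I/R and Sham, 3 libraries each, were compared on log2(value + 1) by a two-sided limma 3.58.1 fit with trended variance (R 4.3.3), with Benjamini-Hochberg adjustment over all 13434 genes with a mean of at least 10 and a threshold of 0.05. Fold changes are on that scale, which understates those of low genes. An exact permutation test of 3 against 3 cannot go below p = 0.1. On the recovered counts, edgeR 4.0.16 called 1 gene higher and 0 lower, and DESeq2 1.42.0 called 39 higher and 8 lower. Only the main limma fit was run on simulated counts, and the alternatives were not. Exon lengths and coordinates come from GENCODE mouse release 21 on GRCm38, the assembly mm10 names, in which 21886 of 22027 identifiers were found, and sequences before gene starts from RefSeq. All 10 members matched. Floors are 3 counts and cover counting error only. Alternatives were other pseudocounts, filters, scalings, count models, a replicate block and leaving out libraries.

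The members and lists were chosen with earlier results of these data known. Genes were named from the members, the 4 tested genes of each pathway list with the smallest p, the 3 most abundant of each marker list and the 3 most like each of the 3 most variable members. Not all genes that these rules give were named above. Among those left out were Casp8 at 0.24, Nek7 at 0.23, Ikbkg at -0.37 and Map3k3 at -0.21. Ly6g, Retnlg, Ngp, Vcam1, Il18r1 and Il18rap were named after their values were seen.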

Additional observations from a re-analysis of the deposited data

How the results depend on the processing

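Over 18 alternatives, 0 of 162 fold changes of the 9 tested members passed the threshold. Il1b, Il18, Il18bp and Il1r2 kept their sign under every one, and Il1r2 alone kept its groups apart under equal totals and TMM factors. Il1a was 0.0073 with equal totals, 0.081 with quantile normalisation, 0.028 without both libraries of the lowest depth, and -0.19 to 0.033 with single libraries left out. Il33 was 0.92 without both libraries of the lowest depth and -0.80 to 0.87 with single libraries left out. Il1rn was -0.48 to 0.030, Il1r1 -0.42 to 0.50 and Il1rap -0.23 to 0.16 with single libraries left out; Il1r1 was -0.064 with edgeR and -0.067 with DESeq2, and Il1rap 0.033 with equal totals. The cause was not tested. The count of 4 genes called higher over the whole table was 1 at a mean of at least 50, 0 without the trend, 1 with edgeR, 39 with DESeq2, 0 without both libraries of the lowest depth and 0 to 20 with single libraries left out, 20 without Sham library 1. Genes called lower numbered 8 with DESeq2 and 0 to 2 with single libraries left out. Interleukin 1 response genes called higher numbered 0 to 1. Positive members numbered 1 to 6 of 9 with single libraries left out, and 4 with equal totals. In the fit with the replicate number as a block 0 genes were called, while fold changes cannot move under it in a balanced design. For each gene, the deviation of a library from the mean of its group was taken, and these deviations were correlated between I/R and Sham libraries. Deviations of same-numbered libraries had correlations of -0.0204, -0.21 and -0.0014, beside -0.13 to 0.18 for differently numbered ones. These are not correlations of the whole expression profiles. With 3 libraries per group these values cannot decide whether the numbers pair the libraries. Low counts limit Il1rl1, which had 0 to 28 counts per library, and the other low receptors. Il1rl1 had 18 counts in I/R library 1, of the lowest depth, and 0 in I/R library 2, of the highest.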
